A study of Mus musculus with 8 samples.

Results

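The collagen and laminin genes were taken by symbol from the table of read counts of mouse pancreatic islets: every gene named Col, digits, a, digits, and every gene beginning Lama, Lamb or Lamc and a digit. The rule found 55 of the 24469 genes listed, 44 collagen chains and 11 laminin chains. Col4a3bp, whose symbol only begins like a collagen chain, was left out. By structure, 17 chains form the sheet of the basement membrane (6 of type IV collagen and 11 laminins), 11 are fibrillar collagens, and 27 are other collagens.

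Basement membranes are thin sheets in which a laminin network is joined to a network of type IV collagen, and fibrillar collagens form the cable-like fibres of interstitial tissue. Each laminin is a trimer of an alpha, a beta and a gamma chain, and each collagen molecule is a triple helix of 3 chains. In pancreatic islets the basement membrane lies mainly around capillaries, and mouse beta cells rely on the endothelial cells for it, while fibroblast-like stellate cells are known as the main source of fibrillar collagen.

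RNA had been sequenced from islets picked by hand from mice of 8 weeks. One group was wild-type C57BL/6 (4 mice). The other was a knockout of the Rpl13a snoRNAs on that background (4 mice), without U32a, U33, U34 and U35a, small RNAs that guide chemical modification of other RNAs and that Rpl13a, a ribosomal protein gene, carries in its introns. The labels give 4 mice per genotype and do not say whether they were littermates. The comparison asks which islet transcripts differ with the loss of the snoRNAs. None of the 55 genes lies on chromosome 7, which carries Rpl13a.

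The libraries held 21235196 to 41148318 assigned counts, of which 0.015 to 0.0462% fell on the 55 genes. The 4 targeted snoRNAs had 15 counts in wild type (9 for Snord32a and 6 for Snord33) and 0 in knockout. The 6 islet hormone genes took 9.02 to 24.3% of counts and 16 acinar markers took 1.73 to 23.9%. Knockout replicate 2 stood apart with 4965 CPM (counts per 1000000 counts of the tested genes, scaled by TMM, a factor for library composition) over 12 liver markers, against 10.6 to 15.9 CPM in the other 7 libraries. Xist, the RNA of the inactive X chromosome in female cells, had 20935 counts in wild-type replicate 4, 11458 in knockout replicate 1 and 20491 in knockout replicate 4, and 51 to 158 in the other libraries. In such bulk samples, fewer cells of a type and less RNA per cell cannot be told apart.

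The type IV collagen pair Col4a1 and Col4a2, which encode the chains found in nearly all basement membranes, had the highest levels of the basement membrane class. Both genes lie on chromosome 8 and are transcribed in opposite directions from almost 1 point. Their annotated starts are 21 bases apart, with each annotated transcript running first through the start of the other. The 22 bases from start to start are printed because they lie within both transcripts. They lie in GRCm38.p6 at chr8:11312805-11312826, read on the strand of Col4a2, and capitals mark a GC box, a motif bound by Sp-family factors.
Col4a1 and Col4a2 start-to-start stretch: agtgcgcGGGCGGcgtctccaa
The GC box, searched as GGGCGG on both strands, stands anywhere in the first 22 bases from the start in 4.1% of 32851 RefSeq promoter windows. Neither CCAAT nor TATAAA, nor their reverse complements, is among these letters. A match describes the letters and says nothing on binding.

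Col4a1 stood at 34.3, 56.2, 47.3 and 55.1 CPM in wild-type replicates 1 to 4 and at 44.1, 26.6, 28.0 and 42.4 CPM in knockout replicates 1 to 4. Knockout replicates 2 and 3 lay below all wild-type libraries, while knockout replicates 1 and 4 lay within the wild-type range. The means were 48.2 ± 10.1 and 35.3 ± 9.25 CPM (SD, n = 4 each), a log2 fold change of -0.45 ± 0.21 (SE) that did not pass (adjusted p = 0.282, quasi-likelihood test of edgeR over 13617 genes). Col4a2 followed, with 21.3, 35.6, 29.2 and 35.3 CPM in wild type and 30.7, 19.0, 16.1 and 27.0 CPM in knockout (log2 fold change -0.39 ± 0.23, edgeR adjusted p = 0.376). Again knockout replicates 2 and 3 were the lowest of all 8 libraries.

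Per kb of transcript, Col4a1 had 1.37 to 1.69 times the level of Col4a2 in every library. That ratio was 1.55 ± 0.0261 in wild type and 1.50 ± 0.148 in knockout (SD, n = 4 each), a range of 1.24-fold between its lowest and highest library while Col4a1 itself ranged over 2.11-fold. The pair made up 47.6 to 59.9% of the summed basement membrane level per kb.

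The other type IV chains were scarce. Col4a3 and Col4a4, a pair on chromosome 1 known from the kidney filter, had 270 and 132 counts over all libraries. Their log2 fold changes were 0.22 ± 0.41 and -0.02 ± 0.35 (edgeR adjusted p = 0.798 and 0.980). Their ratio per kb ran from 1.24 to 5.08, at counts too low to hold it firmly. Col4a5 and Col4a6 on the X chromosome had 65 and 28 counts and did not pass the filter on low counts.

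Lamc1, the gamma chain shared by most laminins, had the highest laminin level per kb, 2.71 ± 0.326 CPM per kb in wild type and 2.57 ± 0.553 in knockout (SD, n = 4 each). Lamb1 (1.23 ± 0.292 and 1.19 ± 0.32 CPM per kb) and Lama4, an alpha chain of vascular basement membranes (1.21 ± 0.215 and 1.04 ± 0.25), came next and did not differ beyond the spread between libraries. Below them stood the beta chain Lamb2 (0.885 ± 0.179 and 0.82 ± 0.185) and Lama3 (0.852 ± 0.359 and 0.831 ± 0.126), an alpha chain known from epithelia. The place of Lama3 depends on the transcript length used, 10548 bases, the longest of 2 coding transcripts. In mean CPM of all libraries Lama3 (8.88) stood above Lamb1 (6.99) and Lama4 (6.80). Lama5, the broadly expressed alpha chain, had 0.531 ± 0.0849 and 0.383 ± 0.0503 CPM per kb.

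Lama5 had the smallest p of the basement membrane chains. It stood at 4.60, 6.59, 6.57 and 6.41 CPM in wild type and at 4.82, 3.52, 4.55 and 4.53 CPM in knockout. Of the wild-type libraries only replicate 1 reached the knockout values, and 3 of 4 knockout libraries lay below all wild-type libraries. The log2 fold change was -0.48 ± 0.16, and edgeR's adjusted p was 0.182. Without wild-type replicate 1 it was -0.60 and passed (edgeR adjusted p = 0.0285). That fit called 1313 of 13874 genes (9.46%). Of the genes called, 843 were lower in the knockout, or 6.08% of all 13874. Over all 8 fits that left out a library the value ran from -0.60 to -0.39, and the adjusted p from 0.0285 to 0.426.

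Lama2, the alpha chain best known from muscle and peripheral nerve, went the other way in 2 libraries. It had 2.93, 3.49, 1.80 and 2.44 CPM in wild type and 4.71, 2.71, 3.31 and 7.20 CPM in knockout, so that knockout replicates 1 and 4 exceeded every wild-type value. The log2 fold change was 0.75 ± 0.31 (edgeR adjusted p = 0.242) and 0.41 without knockout replicate 4. Lamc1, Lamb1, Lamb2, Lama3 and Lama4 had log2 fold changes from -0.21 (Lama4) to -0.041 (Lama3) and edgeR adjusted p-values from 0.543 to 0.942. The sign of each of these except Lama4 changed when a library was left out.

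**Figure D1:**
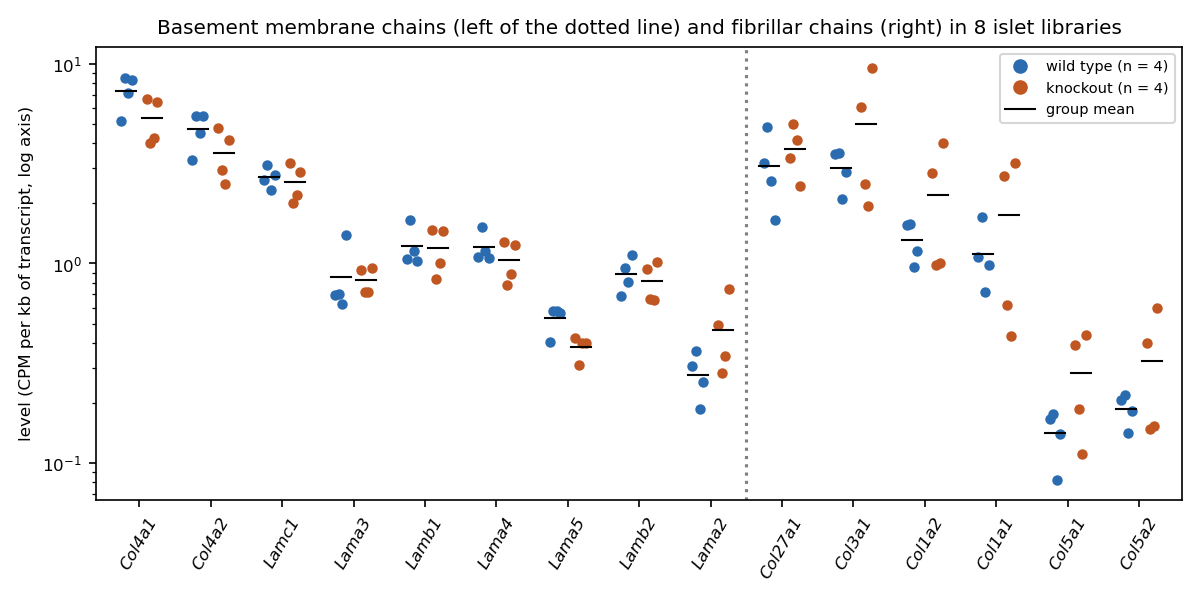
Levels of 9 basement membrane and 6 fibrillar chains of high mean CPM, in CPM per kb of transcript on a log axis, with 1 point per library and lines at the group means (n = 4 each). For Col3a1, Col1a2 and Col1a1 the knockout points split into a pair above the wild-type points and a pair within or below their range, while Lama5 is low in the knockout and in 1 wild-type library.

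Ratios between laminin chains varied more. Lamc1 over Lamb1, chains that share trimers, ran from 1.88 to 2.68 per kb, and that of the alternative alpha chains Lama4 over Lama5 from 1.90 to 3.11 (2.30 ± 0.409 in wild type and 2.71 ± 0.424 in knockout, SD, n = 4 each). The alternative beta chains, Lamb1 over Lamb2, ran from 1.26 to 1.75 in 7 libraries and was 0.938 in wild-type replicate 4. These ratios overlapped between the genotypes.

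**Figure D2:**
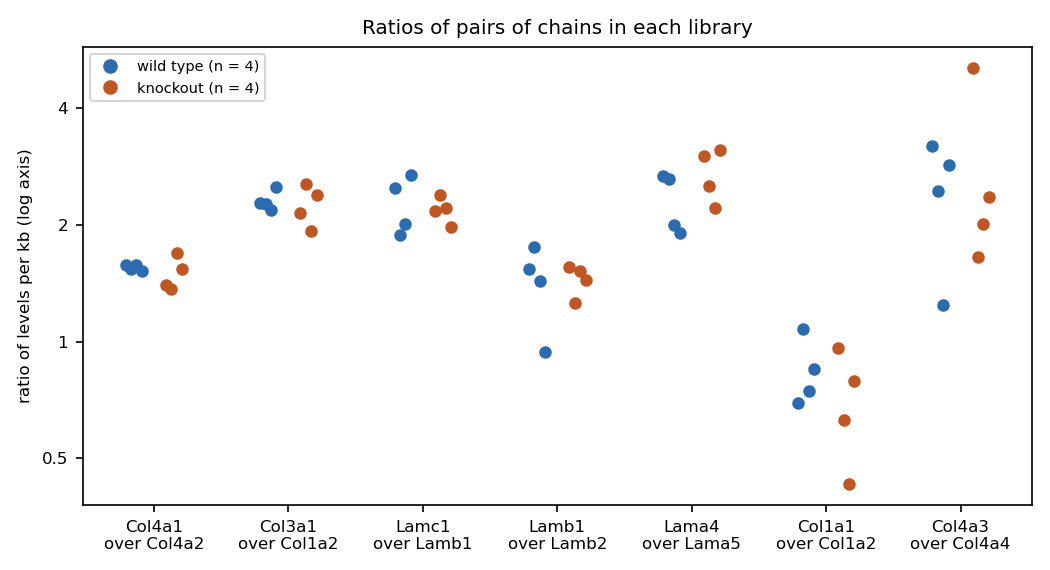
Ratio of the levels per kb of pairs of chains in each of 8 libraries, on a log axis, with wild type in blue and knockout in orange (n = 4 each). The ratio of Col4a1 to Col4a2 keeps to 1.37 to 1.69 and that of Col3a1 to Col1a2 to 1.93 to 2.56, while that of Col1a1 to Col1a2 spreads from 0.429 to 1.08.

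Lamb3, the beta chain of the epithelial laminin that also holds Lama3, did not vary like Lama3. It is named, after its values were seen, because its CPM had the widest range among the tested chains of the class, 18.2-fold. It had 31, 8, 26 and 3 counts in wild type and 26, 10, 31 and 30 in knockout, with the lowest 3 in wild-type replicates 2 and 4 and knockout replicate 2. Those libraries also had the lowest shares of counts on acinar markers, 1.73, 4.30 and 4.50%, against 12.0 to 23.9% in the other 5. Col7a1, the anchoring fibril collagen of epithelia (also named after its values were seen), had its lowest values in the same 3 libraries. It had 5.71, 0.662, 3.52 and 2.02 CPM in wild type and 6.53, 0.489, 5.70 and 3.02 CPM in knockout. The part of acinar RNA in these values was not tested.

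By the mean of all 8 libraries, fibrillar chains were led per kb by Col3a1, Col27a1, Col1a2 and Col1a1. In wild type Col3a1 and Col27a1 were close, at 3.03 ± 0.695 and 3.08 ± 1.35 CPM per kb (SD, n = 4). In knockout they had 5.03 ± 3.55 and 3.74 ± 1.08 CPM per kb (SD, n = 4). Col1a1 and Col1a2 encode the chains of type I collagen, the main fibre of connective tissue, and Col3a1 encodes the single chain of type III. For Col1a2 and Col3a1, which varied together, the 250 bases before the annotated start are printed, from RefSeq on GRCm38.p6. That of Col1a2 lies at chr6:4505368-4505617 and that of Col3a1 at chr1:45311288-45311537, both on the plus strand. Capitals mark what was found of the CCAAT motif, the same GC box as above and the TATA motif (TATAAA), each searched on both strands.
Col1a2: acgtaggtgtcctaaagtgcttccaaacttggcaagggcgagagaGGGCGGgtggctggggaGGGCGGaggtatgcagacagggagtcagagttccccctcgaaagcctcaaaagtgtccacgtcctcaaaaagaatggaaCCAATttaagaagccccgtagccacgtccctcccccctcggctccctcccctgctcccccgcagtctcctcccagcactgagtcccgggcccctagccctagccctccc
Col3a1: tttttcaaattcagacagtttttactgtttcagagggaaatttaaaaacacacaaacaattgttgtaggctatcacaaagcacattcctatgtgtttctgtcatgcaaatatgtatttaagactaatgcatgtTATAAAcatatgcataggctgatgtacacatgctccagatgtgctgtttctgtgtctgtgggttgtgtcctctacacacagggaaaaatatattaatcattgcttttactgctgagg
The Col1a2 stretch holds 1 CCAAT motif and 2 GC boxes, and the Col3a1 stretch holds 1 TATA motif and neither of the others. Of 32851 windows of the same length, 33.8% hold the CCAAT motif, 32.7% the GC box and 12.4% the TATA motif, so each of these motifs is common or fairly common.

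Col3a1 had 19.7, 19.9, 11.7 and 16.0 CPM in wild type and 33.8, 13.96, 10.8 and 53.4 CPM in knockout. Col1a2 had 8.32, 8.46, 5.15 and 6.16 CPM in wild type and 15.2, 5.25, 5.39 and 21.6 CPM in knockout. Col1a1 had 6.39, 10.1, 4.25 and 5.80 CPM in wild type and 16.2, 3.65, 2.56 and 18.9 CPM in knockout. For all 3 genes knockout replicates 1 and 4 were the highest of the 8 libraries, and knockout replicates 2 and 3 lay within or below the wild-type range.

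The log2 fold changes were 0.73 ± 0.54 for Col3a1, 0.75 ± 0.51 for Col1a2 and 0.64 ± 0.71 for Col1a1, with edgeR adjusted p-values of 0.490, 0.451 and 0.654. Without knockout replicate 4 they were 0.20, 0.27 and 0.14. Both knockout libraries with high values were also high in Xist. Wild-type replicate 4, high in Xist too, had no such level. The Xist level, taken as high (over 1000 counts) or low, was also used as a covariate. The log2 fold changes were then 0.18 for Col3a1, 0.24 for Col1a2 and -0.21 for Col1a1.

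Col5a1 and Col5a2, chains of type V collagen that starts and limits fibres of type I, showed the same libraries on top. Col5a1 had 1.40, 1.48, 0.691 and 1.18 CPM in wild type and 3.29, 1.57, 0.928 and 3.69 CPM in knockout, so that knockout replicates 1, 2 and 4 exceeded every wild-type value. Its log2 fold change was 0.99 ± 0.42 (edgeR adjusted p = 0.247), the smallest p of the fibrillar class. Col5a2 had a log2 fold change of 0.79 ± 0.43 (edgeR adjusted p = 0.338), and of 0.28 without knockout replicate 4.

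Col27a1, a fibrillar chain first described in cartilage, did not follow the others. It had 24.3, 37.0, 19.8 and 12.6 CPM in wild type and 25.7, 37.9, 31.5 and 18.7 CPM in knockout. Its lowest libraries were wild-type replicate 4 and knockout replicate 4, the latter the highest for Col3a1 and type I collagen. Col27a1 made up 11.8% of the summed fibrillar level per kb in knockout replicate 4 and 51.3% in knockout replicate 3. Its log2 fold change was 0.28 ± 0.35 (edgeR adjusted p = 0.693), with 0.074 as the lowest value (wild-type replicate 4 left out) and 0.59 as the highest (wild-type replicate 2 left out). The cartilage chains Col2a1 and Col11a1 had 2 and 13 counts over all libraries, and Col24a1 had 9, so that these 3 fibrillar chains were not tested.

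Col3a1 moved in step with the type I chain Col1a2, and Col1a1 less so with either. Col3a1 over Col1a2 ran from 1.93 to 2.56 per kb (2.31 ± 0.134 in wild type and 2.25 ± 0.273 in knockout, SD, n = 4 each). Col3a1 over Col1a1 ran from 2.11 in wild-type replicate 2 to 4.50 in knockout replicate 3 (2.82 ± 0.503 in wild type and 3.45 ± 1.03 in knockout). Col1a1 over Col1a2, whose protein is built from more Col1a1 than Col1a2 chains, ran from 0.429 in knockout replicate 3 to 1.08 in wild-type replicate 2. Its means were 0.84 ± 0.169 and 0.703 ± 0.229.

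The classes were then set side by side as sums per library. The basement membrane sum was 16.5, 24.4, 19.5 and 23.1 CPM per kb in wild type and 21.7, 13.9, 14.1 and 20.7 in knockout, a range of 1.76-fold. The fibrillar sum was 10.03, 12.5, 6.97 and 7.37 CPM per kb in wild type and 16.3, 9.80, 8.07 and 20.8 in knockout, a range of 2.98-fold. The basement membrane sum was the larger in 7 libraries, and in knockout replicate 4 both were nearly equal.

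The ratio of the basement membrane to the fibrillar sum was 1.65, 1.94, 2.80 and 3.13 in wild type and 1.33, 1.42, 1.75 and 0.995 in knockout. Only knockout replicate 3 reached the wild-type range, above wild-type replicate 1. The means were 2.38 ± 0.699 and 1.37 ± 0.311 (SD, n = 4 each), and the mean log2 ratio was 0.77 units lower in the knockout, a difference of -0.77. This is a description with no test, since the chains were chosen with earlier results of these data known. Leaving out a library gave differences from -0.93 to -0.62. Without Col27a1 the ratio ran from 2.42 to 4.46 in wild type and from 1.13 to 3.60 in knockout, where knockout replicates 2 and 3 both lay within the wild-type range.

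**Figure D3:**
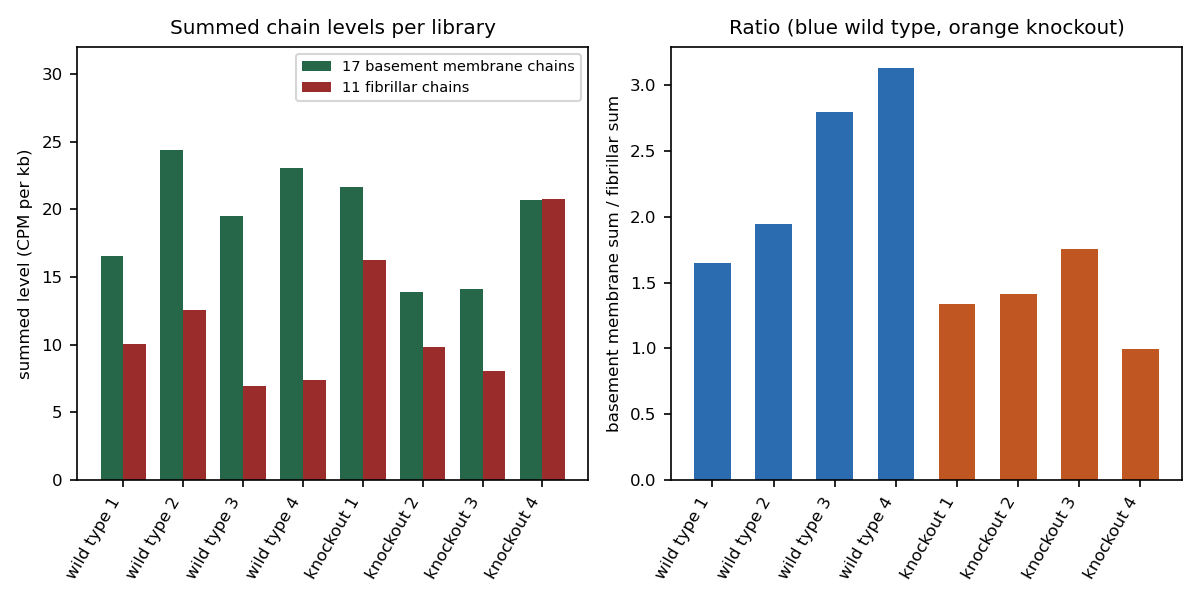
Left, summed levels of the 17 basement membrane and 11 fibrillar chains in each library, in CPM per kb. Right, the ratio of both sums, which runs from 1.65 to 3.13 in the wild-type and from 0.995 to 1.75 in the knockout libraries.

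By chain, 5 of 14 tested basement membrane chains (35.7%) and 7 of 8 tested fibrillar chains (87.5%) had a positive log2 fold change, against 51.3% of all 13617 genes, of which 48.7% were negative. The medians were -0.043 and 0.68, beside 0.0098 over all genes. The fibrillar median was 0.24 without knockout replicate 4 and 0.21 with the Xist level as a covariate. The basement membrane median was 0.066 without wild-type replicate 2, 0.013 without knockout replicate 3 and 0.012 when the acinar share was a covariate, so its sign did not hold. It was -0.22 with no composition factor, a scaling that moved the median of all genes to -0.11.

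No collagen or laminin gene passed an adjusted p of 0.05 in edgeR's test of the 8 libraries, 0 of 39 tested, where 2 of 13617 genes (0.0147%) passed. At an unadjusted p under 0.05 there were 4, or 10.3% of the 39, against 18.7% of all genes. These were Lama5 on the lower side (10.3% of all genes) and Lama2, Col5a1 and Col14a1 on the higher side (8.42% of all genes). DESeq2 called 1 member, Col14a1, where it called 4.98% of the genes to which it gave an adjusted p. Among the named genes it gave none to Col5a1, Col5a2, Col18a1, Col4a3 and Col4a4, so it could not call these. For none of the 39 did the genotypes fall apart without overlap, which 8.34% of all genes did. The other 16 members had 0 to 69 counts over all libraries and were not tested. Col9a1 was the one with 0, a count that allows up to 3 by counting error alone.

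**Figure D4:**
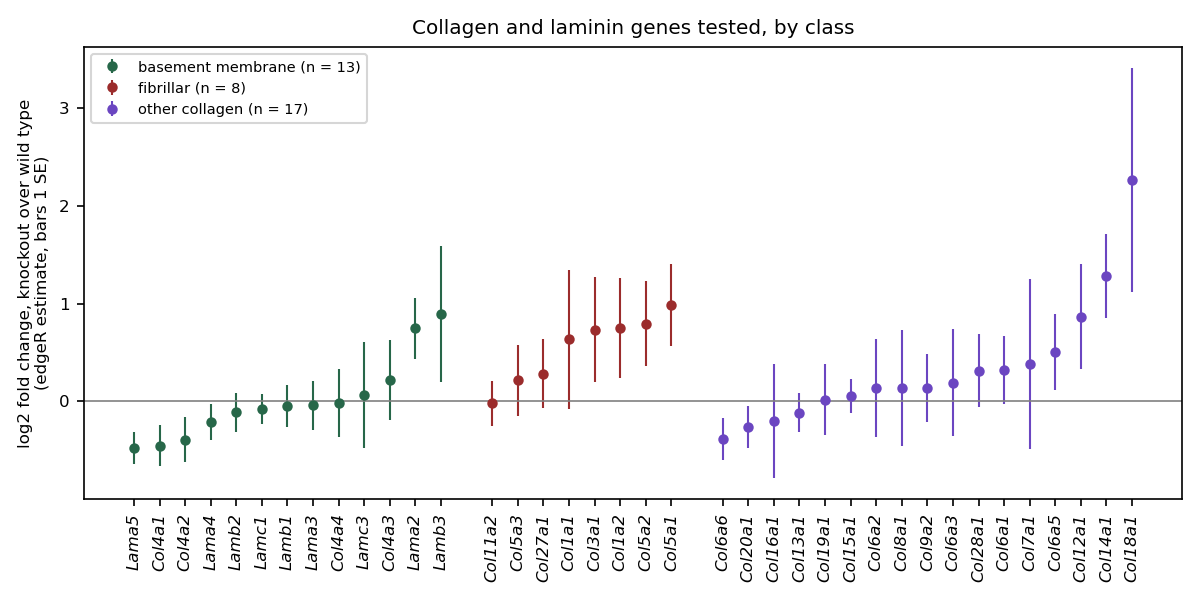
Log2 fold change of knockout over wild type for tested genes, with bars of 1 SE from edgeR, sorted within 13 basement membrane, 8 fibrillar and 17 other chains. Of the 8 fibrillar estimates 7 lie above 0 and Col11a2 lies at -0.019, and Col18a1 has the largest estimate and the widest bar.

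Of the other collagens, 13 of 17 tested had a positive log2 fold change, with a median of 0.14. Col15a1, a collagen of the basement membrane zone of vessels, had the highest level per kb of them, 4.45 ± 0.655 CPM per kb in wild type and 4.64 ± 1.14 in knockout (SD, n = 4 each). The genotypes overlapped, at a log2 fold change of 0.056 ± 0.17 (edgeR adjusted p = 0.881), with a sign that changed when a library was left out.

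Col18a1, the related precursor of endostatin that liver cells make in quantity, had 28, 77, 41 and 48 counts in wild type and 33, 723, 19 and 65 in knockout. Only knockout replicate 2, the library with liver RNA, was high. The log2 fold change was 2.26 ± 1.15 (edgeR adjusted p = 0.332) and 0.12 without that library. The part of liver RNA in the Col18a1 value was not tested.

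Col14a1, a fibril-associated collagen of fibroblasts, had the smallest p of this class. It stood at 2.41, 2.47, 1.59 and 2.30 CPM in wild type and at 7.35, 5.15, 1.55 and 7.36 CPM in knockout. Knockout replicates 1, 2 and 4 exceeded every wild-type value and replicate 3 lay below them all. The log2 fold change was 1.28 ± 0.42, with an adjusted p of 0.192 in edgeR and 0.03 in DESeq2. Leaving out 1 library gave values between 1.08 and 1.58, with edgeR adjusted p-values from 0.0613 to 0.427.

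Type VI collagen forms beaded filaments next to cells, and its chains Col6a1, Col6a2 and Col6a3 were highest in knockout replicates 1 and 4. Col6a3 had 2.05, 4.97, 3.94 and 6.11 CPM in wild type and 6.53, 1.92, 2.56 and 8.58 CPM in knockout. Col6a1, Col6a2 and Col6a3 had log2 fold changes of 0.32 ± 0.35, 0.14 ± 0.50 and 0.19 ± 0.55 (edgeR adjusted p = 0.635, 0.9004 and 0.869). All 3 were negative without knockout replicate 4. Col6a6, a later-found chain of the family, was at 25.8 ± 8.87 CPM in wild type and 19.8 ± 2.59 in knockout, highest in wild-type replicate 2 at 38.7 CPM and lowest in knockout replicate 4 at 17.4 CPM (log2 fold change -0.39 ± 0.21, edgeR adjusted p = 0.340). Its counts and those of Col6a5 were not whole in all 8 libraries, and both levels are uncertain because how the counting made such values is not given in the sources used here.

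**Figure D5:**
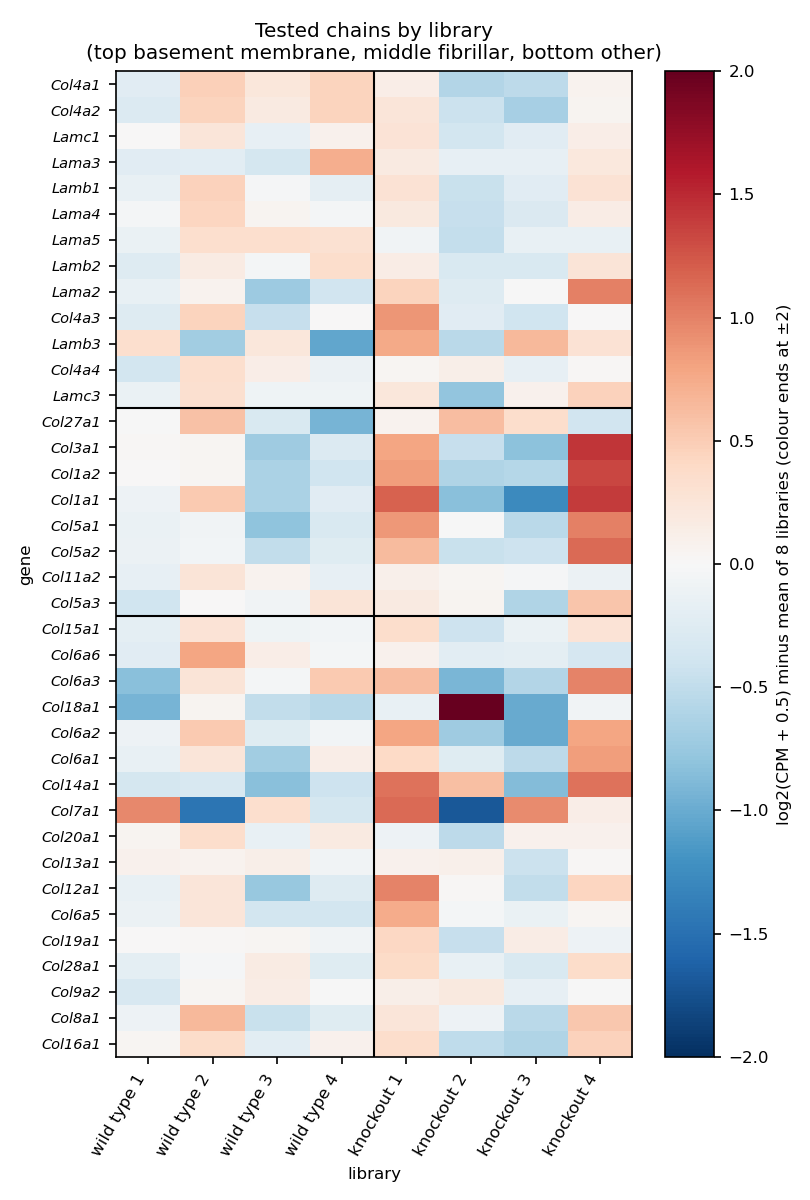
Level of tested genes in each library, as log2(CPM + 0.5) minus the mean of the 8 libraries, with basement membrane chains on top, fibrillar chains in the middle and other collagens below. Knockout replicates 1 and 4 are high for Col3a1, Col1a2, Col1a1, Col5a1 and Col5a2, and Col18a1 is high in knockout replicate 2.

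Genes that work with these chains showed no called change. None of 13 tested basement membrane partners passed in edgeR or DESeq2 (6 higher, 7 lower, median -0.0034), with 2 at an unadjusted p under 0.05, a rule that 18.7% of all genes met. Both were lower. Hspg2, the heparan sulfate proteoglycan perlecan, stood at 50.02 ± 10.9 CPM in wild type and 36.4 ± 6.21 in knockout (log2 fold change -0.46 ± 0.17, edgeR adjusted p = 0.199). Npnt, the integrin ligand nephronectin, had -0.44 ± 0.19 (edgeR adjusted p = 0.248).

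Of 16 tested receptors for laminin and collagen, 8 had higher and 8 lower values, 0 passed in either tool, and 4 in each direction had an unadjusted edgeR p under 0.05, against 8.42% of all genes on the higher and 10.3% on the lower side. Ddr1, a collagen-binding receptor kinase, was at 29.8 ± 5.41 CPM in wild type and 21.8 ± 3.01 in knockout (log2 fold change -0.45 ± 0.14, edgeR adjusted p = 0.173). The laminin receptor subunit Itga3 had -0.45 ± 0.16 (edgeR adjusted p = 0.192). The others at an unadjusted p under 0.05, named after their values were seen, were Dag1 (-0.21 ± 0.084) and Bcam (-0.41 ± 0.18) on the lower side. On the higher side were the integrin subunits Itga1 (0.47 ± 0.17) and Itgb1 (0.21 ± 0.093), the collagen receptor kinase Ddr2 (0.59 ± 0.22) and the syndecan Sdc1 (1.16 ± 0.44). Their edgeR adjusted p-values ran from 0.192 (Itga1) to 0.261 (Itgb1). Sdc1 had 5.45 CPM in knockout replicate 2, while the other libraries had 0.783 to 2.29 CPM.

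Of 22 tested genes of collagen synthesis and crosslinking 11 had higher and 11 lower values, with 0 past either tool and 2 at an unadjusted edgeR p under 0.05, which 18.7% of all genes had. These were Crtap and Plod3, of prolyl and lysyl hydroxylation, at -0.38 ± 0.13 and -0.24 ± 0.099 (edgeR adjusted p = 0.185 and 0.238). Of 8 tested genes of matrix turnover 6 had higher values, 0 passed in either tool and 1 had an unadjusted edgeR p under 0.05. This was the metalloproteinase gene Mmp19 at 1.94 ± 0.72 (edgeR adjusted p = 0.216). It had 3.23 CPM in knockout replicate 2, the library with liver RNA, and 0.235 to 0.771 CPM in the others. Timp3, a tissue inhibitor of metalloproteinases, had 0.51 ± 0.28 (adjusted p = 0.353).

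Markers of the cells that make these chains were measured beside them. The 12 endothelial markers, all detected, summed to 197 to 275 CPM in wild type and 188 to 243 CPM in knockout. Of them 11 had a negative log2 fold change (median -0.19), Plvap at -0.36 ± 0.13 and Cdh5 at -0.25 ± 0.12 with the smallest p-values (edgeR adjusted p = 0.209 and 0.294). As for Col4a1, the lowest of all 8 sums belonged to knockout replicates 2 and 3 (196 and 188 CPM), closely followed by wild-type replicate 1 (197 CPM).

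The 12 stellate, fibroblast and pericyte markers, all detected, summed to 153 to 173 CPM in wild type and 152 to 256 CPM in knockout, and 4 of 10 tested had positive values (median -0.065). The fibroblast proteoglycan gene Dcn had 9.72, 3.22, 3.25 and 2.97 CPM in wild type and 10.2, 13.2, 6.27 and 13.9 CPM in knockout (log2 fold change 1.19 ± 0.47, edgeR adjusted p = 0.242). Cspg4, a pericyte gene, had -0.52 ± 0.24 (adjusted p = 0.273). The highest sum belonged to knockout replicate 4 and the next to knockout replicate 1 (182 CPM), the libraries with the highest fibrillar sums. Most of each marker sum came from Rgs5 alone, a gene named after its values were seen. Rgs5 had 117 to 129 CPM in wild type and 135, 130, 123 and 198 CPM in knockout replicates 1 to 4. The 10 ductal markers summed to 153 to 166 and 132 to 175 CPM, the 8 Schwann cell markers to 32.2 to 45.2 and 32.2 to 37.5 CPM, and the 9 macrophage markers to 17.7 to 27.4 and 16.2 to 35.7 CPM, in wild type and knockout respectively. All 16 acinar markers had positive values (median 0.50) and 8 of 9 beta-cell markers negative ones (median -0.43), with 0 of either past edgeR, 0 and 6 at an unadjusted p under 0.05 (18.7% of all genes), and 0 and 6 past DESeq2 (4.98% of the genes it adjusted). The part of cell composition in the chain levels was not tested.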

How the data were processed

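The members, lists and tests were chosen with earlier results of these data known. Per the labels' protocols, total RNA of hand-picked islets was made into SeqPlex libraries. The submitters' processing notes name STAR 2.4.1, Partek and mm9, with no role, annotation or strand given in the sources used here. The deposited table holds estimated counts made by the authors, 9.98 to 12.4% of them not whole within 0.01, and they were rounded here. The deposited normalized table was not used. The test of counts used R 4.3.3 and edgeR 4.0.16: TMM, filterByExpr, a robust quasi-likelihood F-test and Benjamini-Hochberg adjustment over 13617 genes at 0.05. The fit was tested on simulated data, where it recovered most large changes and its share of false calls was above the nominal rate. The simulated fold sizes and the limit for passing were changed after a first run with a higher share. DESeq2 1.42.0 was an alternative. The other alternatives were no composition factor, library sizes without acinar and hormone genes, no filter and a covariate for the acinar share. Further ones were the replicate number as a block and each library left out. Chosen after seeing the data were the Xist level as a covariate and the fibrillar sum without Col27a1. The Xist covariate had the levels high (over 1000 counts) and low. CPM are counts over TMM-scaled sizes of the tested genes. Levels per kb used the longest coding transcript of GENCODE M21 (GRCm38), found for all 55 genes. RefSeq promoters were found for 40. P-values measure the spread between mice. No pair of libraries came near sampling noise (smallest chi-square per degree of freedom 26.4). Named genes were the 10, 6 and 6 chains of highest mean CPM in the classes, any called in a fit, the smallest p per class, partners in a ratio, and 2 per list. One chain that the rule names is not reported here by name and counts only in totals. Liver markers were listed after seeing the data. Counting limits cover counting error only.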

Additional observations from a re-analysis of the deposited data

Results flagged for a closer look

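In 52 groups of 4 libraries (24 named genes and both summed levels, in each genotype), 3 had a library far from the other 3, where chance gives about 1 in 20. For Col18a1 the gap to the nearest library was 0.945 of the range of the knockout group, with knockout replicate 2 at 23.6 CPM and the others at 0.839 to 2.09 CPM. For Lama5 it was 0.911 of the range in wild type, with replicate 1 at 4.60 CPM and the others at 6.41 to 6.59 CPM. For Lama3 it was 0.9 of the range in wild type, with replicate 4 at 14.7 CPM and the others at 6.60 to 7.41 CPM.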

How the results depend on the processing

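The count of all genes past the threshold was 517 with DESeq2 and 48 with no composition factor, and 2 to 1313 when a library was left out (1313 without wild-type replicate 1, 5 without knockout replicate 4). The count of collagen and laminin genes was 1 with DESeq2 and 0 to 1 when a library was left out. The number of basement membrane chains with higher values was 2 with no composition factor, 8 with the acinar covariate and 3 to 8 with a library left out (3 without knockout replicate 1, 8 without knockout replicate 3). The causes were not tested. Of 360 values of 24 named genes under the alternatives, 322 kept direction and side of the threshold, 36 changed sign and 2 passed it. With no composition factor the log2 fold change was -0.13 for Col15a1, -0.027 for Col6a3, -0.039 for Col6a2 and -0.0069 for Col4a3. With the acinar covariate it was 0.030 for Lama3, 0.019 for Lamb1 and 0.23 for Col4a4. With the Xist covariate it was -0.21 for Col1a1, -0.055 for Col15a1, -0.32 for Col6a3, -0.39 for Col6a2, -0.016 for Col4a3 and 0.010 for Col4a4. With a library left out the ranges were -0.20 to 0.025 for Lamc1, -0.18 to 0.30 for Lama3, -0.16 to 0.14 for Lamb1, -0.24 to 0.0095 for Lamb2, -0.074 to 0.19 for Col15a1, -0.25 to 0.47 for Col6a3, -0.20 to 0.40 for Col6a2, -0.016 to 0.51 for Col6a1, -0.26 to 0.51 for Col4a3 and -0.23 to 0.22 for Col4a4. Same-numbered libraries correlated at 0.042, 0.163, 0.185 and 0.23 in their deviations, and 3 of 4 wild-type libraries correlated best with their own number, a hint of pairing from the data. Since not every pair was over 0.1 and no label says the numbers mark pairs, they were not taken as pairs. With the replicate block 2 genes and 0 members passed, the fibrillar median was 0.41, and the log2 fold change was 0.29 for Col1a1, 1.26 for Col18a1, 0.021 for Lama3, -0.053 for Col6a2 and 0.0032 for Col4a4. The 16 chains with 0 to 69 counts over all libraries were too shallow to test.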

Other observations

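Some genes outside the chain families were high in knockout replicate 2 alone, the library with liver RNA. The metalloproteinase gene Mmp19 had 3.23 CPM there and 0.235 to 0.771 CPM in the other 7 libraries, and the macrophage and sinusoidal endothelial gene Mrc1 had 9.23 CPM there and 0.489 to 1.45 CPM in the others. The part of liver RNA in these values was not tested. The basement membrane glycoprotein gene Sparc was at 105 to 126 CPM in wild type and at 129, 98.2, 81.0 and 202 CPM in knockout replicates 1 to 4. Its highest library, knockout replicate 4, was also the highest for Col3a1, and its lowest, knockout replicate 3, was the lowest for Col3a1.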
